A study of Mus musculus with 11 samples.

Results

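The genes described here are the enzymes and regulators of de novo lipogenesis, the pathway by which cells build fatty acids from carbohydrate. The 10 genes were taken by symbol from the deposited per-mouse tables: Acly, Acaca, Fasn, Scd1, Scd2, Elovl6, Me1, Srebf1, Mlxipl and Thrsp. All 10 were among the 15453 genes of the tables, and all 10 averaged 50 or more normalized tags in 1 genotype or both, as did 9906 genes in all. Epididymal white adipose tissue (eWAT), the visceral fat pad beside the testis, was measured with SAGE (serial analysis of gene expression), a method that represents each transcript by a short tag next to an NlaIII restriction site near its 3′ end. The mice were males of the inbred strain C57BL/6 (C57BL/6J in the study's methods), 16 weeks old, and all had eaten a high fat diet (HFD) from week 8 to week 16. In 6 of them both alleles of Mest were intact (wildtype, WT). The other 5 had inherited from the father an allele without Mest exon 3 (pKO), and Mest is an imprinted gene read from the paternal allele.

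Several features of this model bear on what the values can show. The exon was removed in the germline by an EIIa-cre transgene that was then bred out, so the allele was inactivated in the whole animal and not only in fat, while the maternal allele stayed intact. WT and pKO mice were sons of WT mothers and of fathers carrying the inactivated allele, and the mice profiled were taken from a larger feeding cohort. The study reports that the profiled WT mice had more fat relative to lean mass than the profiled pKO mice after the diet. Genotype and fatness therefore cannot be told apart in these values. The fat pad was ground whole. In such bulk tissue, fewer cells of a type and less RNA per cell cannot be told apart. The WT libraries held 9659740 to 14825727 tags and the pKO libraries 11320342 to 14626803. The Mest level itself was 25107 ± 2672 (SD, n = 6) for WT against 1663 ± 566 (SD, n = 5) for pKO mice, with no overlap, although this 3′ tag lies outside the deleted exon and is no direct check of the deletion. One library, pKO replicate 2, weighed on the number of genes called at an adjusted p of at most 0.1, which was 5 with it and 91 without it.

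As background, lipogenesis starts in the cytosol with the cleavage of citrate to acetyl-CoA, which is carboxylated to malonyl-CoA and assembled into palmitate with electrons from NADPH. Palmitate is then elongated and desaturated before it is esterified into triglyceride. In liver and fat the genes of these steps are controlled together by a pair of transcription factors, SREBP-1c, which responds to insulin, and ChREBP, which responds to glucose metabolites, and a diet rich in fat is known to lower their activity.

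The lipogenic genes did not move as a block between the genotypes. None of the 10 genes differed between genotypes at an adjusted p of at most 0.1 (limma, Benjamini-Hochberg over all genes), a threshold that 0.0505% of the 9906 genes passed, 0.0404% as lower and 0.0101% as higher in pKO mice. The lowest adjusted p of the 10 genes was 0.440 in limma, 0.49 in edgeR and 0.36 in DESeq2, each for Thrsp. At an unadjusted p of at most 0.05, Thrsp was higher in pKO mice, where 4.85% of all genes were higher, and Elovl6 was lower, where 5.77% were lower. These 2 calls among 10 genes stand against 10.6% of all genes past that threshold in either direction. Over the 10 genes the median difference (log2, pKO minus WT, here and throughout) was 0.07 and 8 were above 0, against a median of 0.0086 over all genes, of which 51.3% were above 0. In none of the 10 genes were the ranges of the genotypes apart, as they were in 1.43% of all genes.

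SAGE counts tags and not the whole messenger, so the level of a gene rests on short sequences and is not divided by transcript length. The tags below are predictions from a coding transcript of each gene and may differ from those counted. They were read from GENCODE M21 transcripts (GRCm38) as the 27 bases that start at the NlaIII site closest to the 3′ end, with the CATG of that site in capitals. The tag length and the exact mapping rules used for the deposited tables were not given in the sources used here. Each tag lay in the last exon of its transcript, after the stop codon, that is, in the 3′ UTR, and no other gene overlapped it. These are the tags of the enzymes that make and extend the chain, of the desaturases, and of the regulators:
Acly: CATGtttgctttaaataaactagatag
Acaca: CATGcagggttactgaggaggagggtg
Fasn: CATGcagcagtagaaaagactaagttg
Elovl6: CATGaccgggctgggcttagctcactg
Me1: CATGttgtcaggtagttgtaaatgaat
Scd1: CATGaaaaccattgcaggaaacctttc
Scd2: CATGcaggactccgtttccttccttgg
Srebf1: CATGgctcataacccttgaggggcctt
Mlxipl: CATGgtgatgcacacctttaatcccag
Thrsp: CATGaacctaactattgtagtagcaat

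The tags of Scd1 and Scd2, paralogs that lie beside each other on chromosome 19, differ, and neither occurred in a transcript of another gene. The Scd1 tag lay at chr19:44394616-44394642 on the minus strand in exon 6, and that of Scd2 at chr19:44306701-44306727 on the plus strand in exon 6. The tags of Thrsp (chr7:97412956-97412982, minus strand, exon 2), Elovl6 (chr3:129638274-129638300, plus strand, exon 5) and Acaca (chr11:84401442-84401468, plus strand, exon 54) were likewise found in 1 gene each. The tag of Mlxipl (chr5:135138348-135138374, plus strand, exon 17) was also the last tag of a transcript of Hps3, so the Mlxipl level is uncertain. For several genes only some coding transcripts ended in the printed tag. The counts were 1 of 2 for Scd1, 1 of 3 for Fasn, 3 of 4 for Acly and 2 of 7 for Acaca. They were 1 of 5 for Elovl6, 1 of 4 for Mlxipl and 2 of 3 for Srebf1. Transcripts ending elsewhere would give another tag.

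The 10 genes spanned more than 3 orders of magnitude of tags. Scd1 had the highest mean level of all genes in the tables, with 4.94% to 6.87% of the tags of a WT mouse and 6.01% to 7.73% of those of a pKO mouse. By mean level over all mice, Scd2 ranked 13, Me1 25, Acly 66, Fasn 84, Srebf1 190, Thrsp 194, Acaca 838, Mlxipl 2604 and Elovl6 4274 among the 9906 genes. Together the 10 genes took 6.03% to 8.30% of the tags per WT mouse and 7.48% to 9.04% per pKO mouse.

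**Figure D1:**
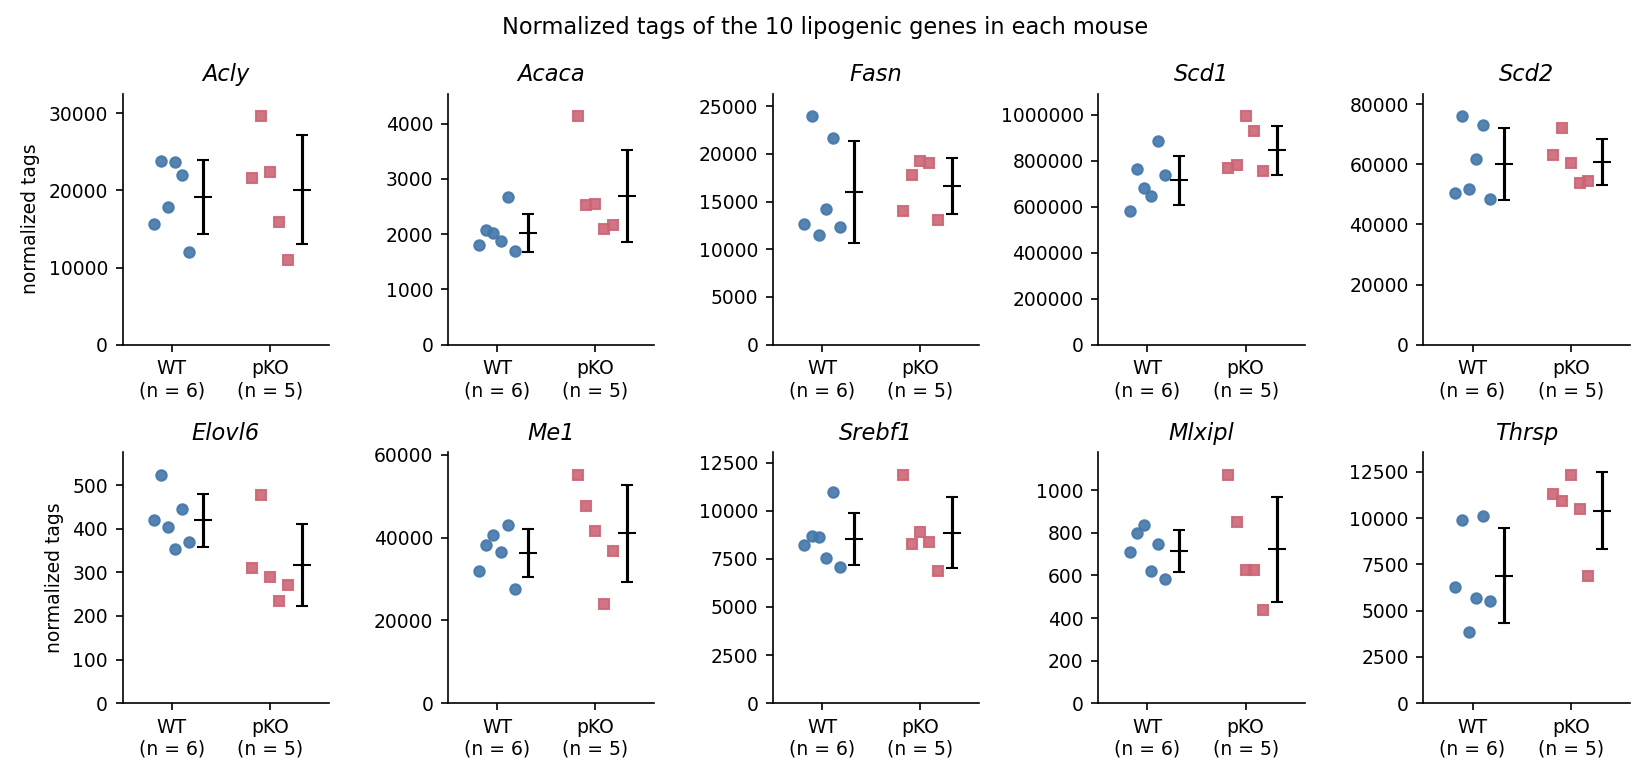
Normalized tags (y axis, linear, from 0) of the 10 lipogenic genes in the 6 WT (circles) and 5 pKO mice (squares), with the mean and SD of each genotype as a bar. The 2 genotypes overlap in every panel. In Thrsp 4 of the 5 pKO mice lie above all WT mice, in Elovl6 4 of the 5 lie below all WT mice, and in Acaca a single pKO mouse at 4131 stands above the rest.

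Acly encodes ATP citrate lyase, which makes cytosolic acetyl-CoA from citrate. Its normalized tags ran from 12059 to 23786 in WT mice, with a median of 19927, and were 21633, 29615, 22362, 15848 and 10948 in pKO replicates 1 to 5. Both the highest and the lowest of the 11 mice were pKO mice. The means were 19178 ± 4778 (SD, n = 6) and 20081 ± 7068 (SD, n = 5), a difference of 0.03 (95% interval -0.51 to 0.57, adjusted p = 0.983, limma). The sign of so small a difference turned under several settings and is not read here.

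Acaca encodes acetyl-CoA carboxylase 1, which makes malonyl-CoA and is regarded as the committed step. Values were 1693 to 2664 in WT mice (median 1947) and 4131, 2526, 2539, 2093 and 2172 in pKO replicates 1 to 5. All 5 pKO mice lay above the WT median, but only pKO replicate 1 lay above the highest WT mouse. Means were 2023 ± 343 (SD, n = 6) and 2692 ± 829 (SD, n = 5), a ratio of 1.33. The difference of 0.38 (SE 0.18, 95% interval -0.00036 to 0.76) had an unadjusted p of 0.0502 (limma; adjusted p = 0.524) and p = 0.0541 in a two-sided exact permutation test. It was 0.22, with an unadjusted limma p of 0.137, without pKO replicate 1. The paralog Acacb, whose product makes the malonyl-CoA that restrains fatty acid oxidation, was at 508 ± 104 (SD, n = 6) for WT against 544 ± 135 (SD, n = 5) for pKO mice.

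Fasn encodes fatty acid synthase, which assembles palmitate from malonyl-CoA. WT mice ran from 11461 to 23937 (median 13436), and pKO replicates 1 to 5 were at 14002, 17738, 19278, 19053 and 13083. The 2 highest mice were WT and so were the 3 lowest, and the pKO values lay inside the WT range. The difference was 0.10 (95% interval -0.36 to 0.55, adjusted p = 0.922, limma).

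Scd1 and Scd2 encode stearoyl-CoA desaturases, which place the double bond that turns saturated into monounsaturated fatty acids. Scd1 values were 580625 to 884619 in WT mice (median 708041) and 770322, 780083, 992843, 927133 and 757175 in pKO replicates 1 to 5. All pKO mice lay above the WT median and 2 of them above the highest WT mouse, with means of 714606 ± 105516 (SD, n = 6) and 845511 ± 107362 (SD, n = 5). The difference of 0.25 (95% interval -0.15 to 0.64) had a limma adjusted p of 0.700, and the two-sided exact permutation test, which does not borrow the spread of other genes, gave p = 0.0671. For Scd2 the WT mice ran from 48266 to 75912 and the pKO mice from 53650 to 72166, inside the WT range, and the difference was 0.03 (95% interval -0.32 to 0.38, adjusted p = 0.973, limma).

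The balance of the 2 desaturases does not depend on how libraries are scaled, because both are read from the same library. Scd1 had 10.04 to 15.2 tags for each Scd2 tag in WT mice, and 12.2, 10.8, 16.4, 17.3 and 13.9 in pKO replicates 1 to 5. Two-sided exact permutation of the log2 ratio, which was 0.22 higher in pKO mice, gave p = 0.184. The means were 12.1 ± 1.92 (SD, n = 6) and 14.1 ± 2.74 (SD, n = 5), and 2 pKO mice lay above the highest WT mouse.

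Elovl6 encodes the elongase that extends palmitate to stearate, and it was the least abundant of the 10 genes. WT mice ran from 354 to 524 (median 413), and pKO replicates 1 to 5 were at 309, 478, 290, 235 and 271. All pKO mice but replicate 2 lay below the lowest WT mouse. The means were 420 ± 60.9 (SD, n = 6) and 317 ± 94.3 (SD, n = 5), a difference of -0.44 (SE 0.18, 95% interval -0.82 to -0.06). Its unadjusted limma p was 0.0267 and its adjusted p 0.467, and the two-sided exact permutation test gave p = 0.0411. Without pKO replicate 2 the difference was -0.60, with an unadjusted p of 0.0012 (limma; adjusted p = 0.12). The unadjusted p was above 0.05 without WT replicate 2 or without pKO replicate 3, 4 or 5, with differences of -0.34 to -0.42. The lowest library held 265 Elovl6 tags, so counting error is small beside the spread of the mice.

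Me1 encodes cytosolic malic enzyme, which supplies NADPH for the synthase. WT mice ran from 27474 to 43023 (median 37357), and pKO replicates 1 to 5 were at 55179, 47614, 41726, 23919 and 36730. The 2 highest mice and the lowest mouse were all pKO. The difference was 0.14 (95% interval -0.30 to 0.58, adjusted p = 0.865, limma), and it was 0.02 without pKO replicate 1 and 0.32 without pKO replicate 4.

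Srebf1 encodes SREBP-1, the insulin-responsive activator of the pathway, and Mlxipl encodes ChREBP, its carbohydrate-responsive activator. Srebf1 was at 7101 to 10974 in WT mice (median 8427) and at 11865, 8272, 8906, 8351 and 6885 in pKO replicates 1 to 5, a difference of 0.04 (95% interval -0.29 to 0.38, adjusted p = 0.953, limma). Mlxipl was at 584 to 837 in WT mice (median 730) and at 1073, 852, 624, 627 and 437 in pKO replicates 1 to 5, a difference of -0.04 (95% interval -0.48 to 0.39, adjusted p = 0.965, limma). In both genes pKO replicate 1 was the highest of the 11 mice and pKO replicate 5 the lowest. The tags do not separate the SREBP-1a and SREBP-1c messengers, and they do not show how much of either factor was active.

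Thrsp, also called Spot 14, encodes a small protein induced by thyroid hormone and by carbohydrate that promotes fatty acid synthesis. It showed the widest gap between genotypes of the 10 genes. WT replicates 1 to 6 were at 6257, 9883, 3832, 5706, 10127 and 5532, and pKO replicates 1 to 5 at 11303, 10946, 12333, 10487 and 6885. Only pKO replicate 5 fell within the WT range, and WT replicates 2 and 5 came closest to the other pKO mice. Means were 6889 ± 2547 (SD, n = 6) and 10391 ± 2075 (SD, n = 5), a ratio of 1.51. The difference was 0.65 (SE 0.24, 95% interval 0.12 to 1.17), with an unadjusted p of 0.0189 (limma; adjusted p = 0.440) and p = 0.0476 in the two-sided exact permutation test. With each mouse left out in turn it lay between 0.50 and 0.79, and the unadjusted limma p stayed at or below 0.05 in 11 of 11 fits. It was above 0.05 with the replicate number as a block (difference 0.60, unadjusted limma p of 0.0648) and relative to adipocyte markers (difference 0.49, unadjusted limma p of 0.0556). The block takes nothing from WT replicate 6, which has no pKO mouse of its number. With that mouse left out and no block, the difference was also 0.60, with an unadjusted limma p of 0.0391. Mid1ip1, which encodes the related protein that partners Spot 14, was at 407 ± 64.1 (SD, n = 6) for WT against 491 ± 241 (SD, n = 5) for pKO mice (adjusted p = 0.863, limma).

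**Figure D2:**
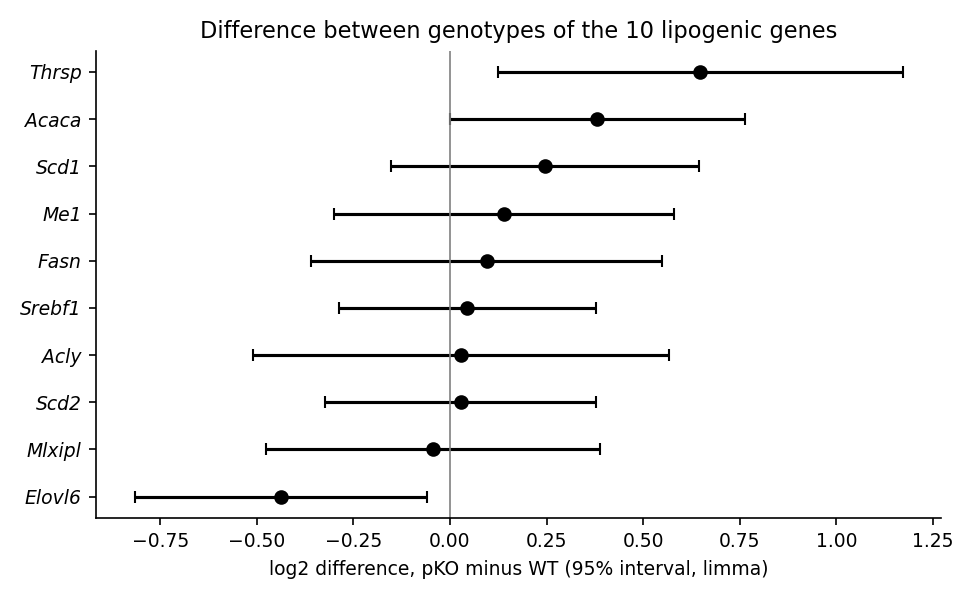
Difference between genotypes of the 10 lipogenic genes (x axis, log2, pKO minus WT) with 95% intervals from limma, ordered by size. The interval of Thrsp, 0.12 to 1.17, lies above 0 and that of Elovl6, -0.82 to -0.06, below 0. The other 8 intervals include 0.

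No marker of the cell types in the pad passed an adjusted p of 0.1, and the counts that follow are at an unadjusted p of at most 0.05, where 4.85% of all genes were higher and 5.77% lower in pKO mice. Of 10 adipocyte markers, Pnpla2 and Slc2a4 were higher in pKO mice and none was lower, and the summed level was 699170 to 1107370 for WT against 756254 to 1124990 for pKO mice. Of 9 macrophage markers, 8 had a mean of at least 50, of which Itgam, Itgax, Cd14 and Trem2 were lower (4 of 8, against the 5.77% of all genes) and none was higher, and the sum of all 9 was 3948 to 5850 for WT against 3287 to 4688 for pKO mice. Of 8 stromal progenitor markers Dcn was higher and none was lower, while 4 of the 8 had differences above 0, with a median of 0.03, and Pi16 and Pdgfrb were at -0.58 and -0.45. Of 6 mesothelial markers, 4 had a mean of at least 50, of which Msln and Krt19 were higher. The stromal sums, made up mostly of Dcn and Col3a1, were apart with pKO above WT, as were 0.717% of single genes, at 44551 to 53408 for WT against 54547 to 59381 for pKO mice, while the mesothelial sums were 567 to 890 and 792 to 1531. Of 6 endothelial markers Kdr was higher and none was lower, with a median difference of 0.02 over the 6 and differences of -0.39 for Pecam1 and -0.23 for Tek, and their sums overlapped at 6152 to 8850 for WT against 6229 to 8546 for pKO mice. Of 6 lymphocyte markers only Cd79a and Cd79b reached a mean of 50, and neither passed the threshold. Markers of epididymal epithelium summed to at most 43.8 tags in any library, with Adam7 and Rnase10 the only 2 of 7 in the tables. Of the brown adipocyte markers, Ucp1 was not in the tables and Cox7a1 alone reached a mean of 50.

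The adipocyte markers had a median difference of 0.23, with 8 of 10 above 0, while Lep was at -0.49 and Lipe at -0.22. Thrsp, Acaca and Scd1 were also higher on average in pKO mice. In pKO replicate 1, the mouse with the highest Acaca, the adipocyte markers were mixed. Slc2a4 (1225, the highest of all mice), Plin1, Fabp4, Retn and Pnpla2 were above their WT medians. Lipe (6065, against 12014 in the lowest WT mouse), Adipoq, Cidec, Cfd and Lep were below theirs. With each library divided by the geometric mean of the adipocyte markers, the median difference of all genes was -0.15. The difference of Thrsp was then 0.49, with an unadjusted limma p of 0.0556, and that of Acaca was 0.22, with one of 0.319. The part of adipocyte, macrophage, stromal and mesothelial RNA in the values of the 10 genes was not tested.

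The mice of a genotype differed from each other, and for 6 of the 10 genes (Acly, Fasn, Scd2, Me1, Srebf1 and Mlxipl) this spread was larger than the difference between genotypes. The SD of log2 values within genotype was 0.47 for Acly, 0.46 for Thrsp, 0.38 for Fasn, 0.36 for Mlxipl, 0.35 for Me1, 0.31 for Acaca, 0.30 for Elovl6, 0.25 for Srebf1, 0.24 for Scd2 and 0.20 for Scd1. The median over all 9906 genes was 0.30. Acly and Thrsp thus stood at percentiles 79.2 and 78.1 of all genes and Scd1, the most abundant, at percentile 17.8.

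Part of this spread was shared. With the mean of each genotype removed, 42 of the 45 pairs among the 10 genes had a Pearson r above 0 over the 11 mice, with a median r of 0.54. These values are a description, since the genes share libraries and scaling and the share over all pairs of genes was not computed. The averaged deviation of the 10 genes was highest in WT replicates 5 and 2 (0.32 and 0.27 on the log2 scale) and in pKO replicates 1 and 2 (0.23 and 0.21), and lowest in pKO replicate 5 (-0.35) and WT replicate 6 (-0.27). Scd2 followed the other 9 genes most closely (r = 0.87) and Scd1 least (r = 0.32), so the paralogs differed in this respect, and their own r was 0.35. Scd1 moved most with Fasn (r = 0.72) and had r values of -0.08 with Me1, -0.06 with Elovl6 and -0.05 with Mlxipl.

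**Figure D3:**
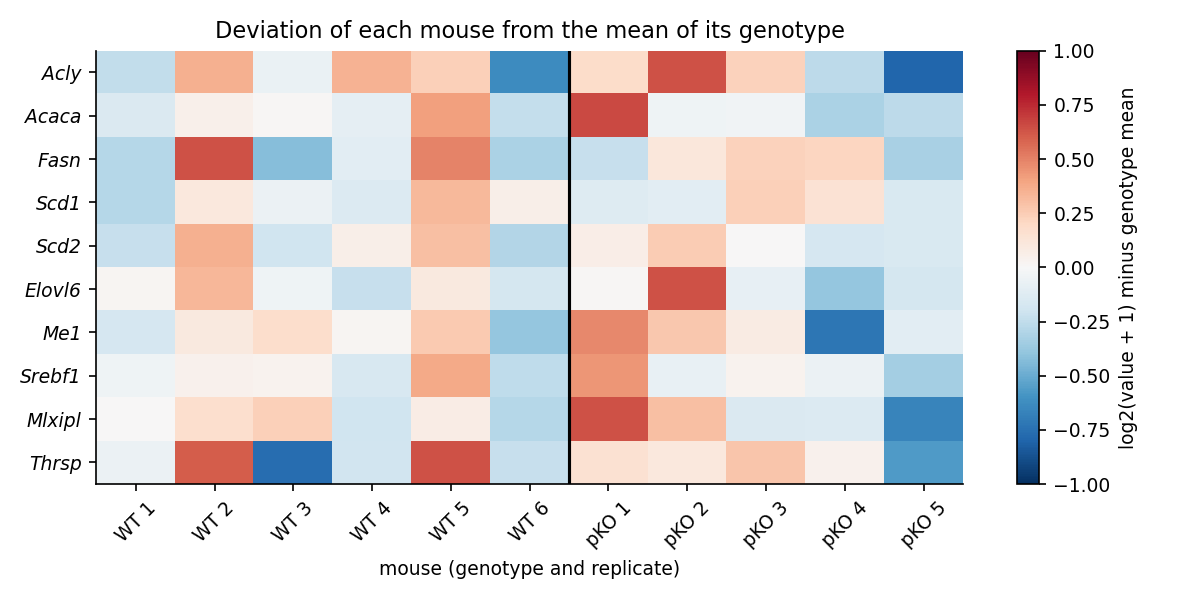
Deviation of each mouse (x axis, 6 WT then 5 pKO mice) from the mean of its own genotype for each of the 10 genes, in log2(value + 1) units, red above and blue below the mean. WT replicate 5 is above its genotype mean in all 10 genes, and pKO replicate 5 is below it in all 10.

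The relation of each activator to its presumed targets was tested over the 11 mice, with the genotype means removed and exact permutation of mice within genotype, for 16 pairs. Srebf1 and Acaca moved together most closely, with r = 0.92 (exact permutation p = 0.0012, adjusted over the 16 pairs p = 0.019) and rho = 0.86 (exact permutation p = 0.0026, adjusted p = 0.042). The r was 0.97 among WT and 0.91 among pKO mice, and 0.69 without WT replicate 5 and pKO replicate 1, the 2 mice farthest from the median of Srebf1, so much of the relation rests on those 2 mice. Mlxipl and Acaca followed with r = 0.75 (exact permutation p = 0.025, adjusted p = 0.20) and rho = 0.72 (exact permutation p = 0.029, adjusted p = 0.12). The other 14 pairs had adjusted p-values for r of 0.24 or more. All pairs with Mlxipl carry the uncertainty of its tag, which is also that of an Hps3 transcript. Srebf1 and Fasn, a pair often used as a readout of SREBP-1c, had r = 0.36 (exact permutation p = 0.29, adjusted p = 0.38) and rho = 0.43 (exact permutation p = 0.20, adjusted p = 0.28). For this pair r was 0.63 among WT and -0.02 among pKO mice. Fasn instead moved most with Thrsp, with r = 0.88 as a description.

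**Figure D4:**
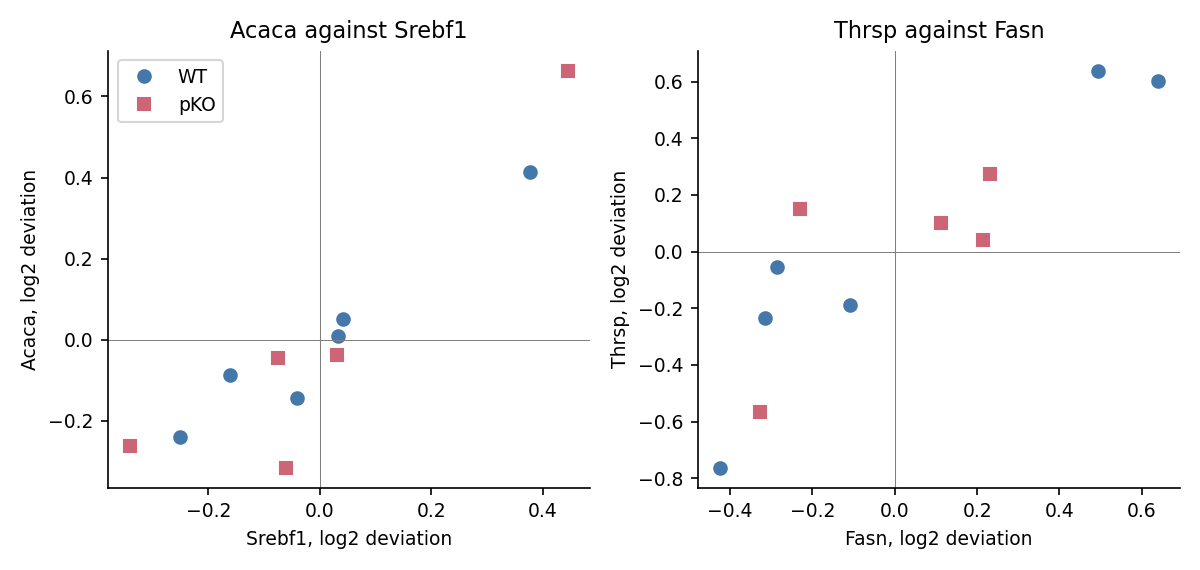
Deviations from the genotype mean (log2) of Acaca against Srebf1 and of Thrsp against Fasn, 1 point per mouse, circles for WT and squares for pKO mice. Acaca and Srebf1 have r = 0.92, with WT replicate 5 and pKO replicate 1 at the upper right, and Thrsp and Fasn have r = 0.88.

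Mest level varies among WT mice on a high fat diet, so its relation to the 10 genes was examined in the 6 WT mice alone, where Mest ran from 20756 to 27897. The Mlxipl level is uncertain here too, since its tag is also that of an Hps3 transcript. None of the 10 relations passed an adjusted p of 0.05. The closest was that of Mlxipl, with r = -0.87 (exact permutation p = 0.024, adjusted over the 10 genes p = 0.24) and rho = -0.94 (exact permutation p = 0.017, adjusted p = 0.17), and its r was -0.81 without the 2 mice farthest from the median of Mest. For Thrsp r was 0.23 (exact permutation p = 0.70) and rho -0.03 (exact permutation p = 1.0), with adjusted p-values of 0.89 and 1.0. Leaving out WT replicates 2 and 3, the 2 mice with the lowest Mest, moved most of these values: over the other 4 mice r was -0.86 for Thrsp, -0.98 for Me1, -0.93 for Scd2, -0.92 for Acaca, -0.90 for Srebf1, -0.89 for Fasn, -0.84 for Acly, -0.63 for Elovl6 and -0.44 for Scd1. In those 4 mice Mest ran only from 25502 to 27897, and the r values over 4 mice were not tested. The r values over 6 mice thus rest largely on WT replicates 2 and 3, and Mlxipl was not the closest without them.

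Outside the lists of lipogenic, related and marker genes, the 5 genes whose deviations were most like the averaged deviation of the 10 genes over the 11 mice were Hectd2 (r = 0.96), Irak1 (r = 0.94), Idh3a (r = 0.94), Fbxl4 (r = 0.94) and Fermt2 (r = 0.92). Idh3a encodes a subunit of the NAD-dependent isocitrate dehydrogenase of the citric acid cycle, and Irak1 a kinase of interleukin-1 and Toll-like receptor signalling. The Idh3a level was 10602 ± 3633 (SD, n = 6) for WT against 12835 ± 3562 (SD, n = 5) for pKO mice. Being the highest of 9906 genes over 11 mice, these r values are a description.

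The promoters of Thrsp and Fasn are shown because these genes moved together across the mice. Both windows hold 250 bases before and 50 after the RefSeq start (GRCm38.p6), written 5′ to 3′ on the strand of the gene, with each CCAAT, or ATTGG for a match on the other strand, in capitals. Thrsp lies at chr7:97417501-97417800 and Fasn at chr11:120824498-120824797, both on the minus strand.
Thrsp: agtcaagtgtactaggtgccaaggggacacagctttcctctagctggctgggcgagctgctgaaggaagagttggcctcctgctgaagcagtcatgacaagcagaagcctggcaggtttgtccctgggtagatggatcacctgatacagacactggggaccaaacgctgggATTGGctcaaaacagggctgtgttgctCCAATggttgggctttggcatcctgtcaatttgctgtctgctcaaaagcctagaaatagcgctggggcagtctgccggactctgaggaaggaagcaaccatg
Fasn: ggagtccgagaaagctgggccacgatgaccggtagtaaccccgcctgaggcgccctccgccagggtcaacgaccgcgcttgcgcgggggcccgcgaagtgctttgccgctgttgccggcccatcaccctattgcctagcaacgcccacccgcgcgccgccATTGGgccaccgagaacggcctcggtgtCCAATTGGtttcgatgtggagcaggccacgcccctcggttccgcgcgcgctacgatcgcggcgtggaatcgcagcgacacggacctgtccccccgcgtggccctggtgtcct

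Counted from the start, the Thrsp window held CCAAT at -52 to -48 and its reverse complement at -79 to -75. The Fasn window held CCAAT at -62 to -58 and the reverse complement at -90 to -86 and at -59 to -55, the last overlapping the first. CCAAT is the box bound by NF-Y, a factor known to work beside SREBP. It was found on either strand in 37.4% of 32851 promoter windows of the same length, and in 7 of the 12 windows of the 8 genes that had any, which belong to Acly, Fasn, Me1, Mlxipl, Srebf1 and Thrsp. An E-box, CACGTG, was found in 7.15% of all windows and among the 8 genes in Mlxipl, and the sterol regulatory element TCACNCCAC in 1.24% of all windows and among the 8 genes in Mlxipl. These are matches of letters within short windows and not measurements of binding.

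Lists of related genes placed the 10 genes within the wider pathway, and no gene of any list passed an adjusted p of 0.1. The counts at the unadjusted threshold are to be read against 4.85% of all genes higher, 5.77% lower and 10.6% in either direction. Of 10 genes of acyl-CoA and malonyl-CoA metabolism, 8 had a mean of at least 50, of which 1 was higher in pKO mice at an unadjusted p of at most 0.05 and 0 were lower, a single call that is near the share of all genes. That gene was Aacs, which activates acetoacetate for lipid synthesis, at 253 ± 86.5 (SD, n = 6) for WT against 381 ± 92.1 (SD, n = 5) for pKO mice (difference 0.64, adjusted p = 0.482, limma). The most abundant genes of the list were Cs, the citrate synthase of mitochondria, with a difference of 0.05, Acsl1, which activates long-chain fatty acids, with 0.25, and Acss2, which activates acetate, with 0.08.

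Of 12 further genes of elongation and desaturation in the tables, 8 had a mean of at least 50, of which 0 were higher and 1 was lower, again near the share of all genes. Elovl1, an elongase of very long chains, ran from 175 to 223 in WT mice, with means of 203 for WT and 141 for pKO mice and a difference of -0.70 (adjusted p = 0.494, limma). Its pKO values were 137, 253, 103, 51.2 and 160, so replicate 2 was above all WT mice while the other 4 were below them. Replicate 2 was also the pKO mouse that stood apart in Elovl6. The abundant genes Fads3, Hsd17b12 and Tecr had differences of -0.14, 0.18 and 0.27. Scd3 and Scd4, the other desaturase paralogs, were at 5.46 ± 3.57 (SD, n = 6) in WT mice for Scd3 and not in the tables for Scd4.

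Of 9 further genes that supply NADPH, 8 had a mean of at least 50 and none passed the unadjusted threshold in either direction. G6pdx, the first enzyme of the pentose phosphate pathway, was at 725 ± 148 (SD, n = 6) for WT against 537 ± 213 (SD, n = 5) for pKO mice (difference -0.48, unadjusted p = 0.0512, adjusted p = 0.53, limma). Its pKO values were 512, 907, 417, 375 and 475, and again replicate 2 stood above the other 4. The differences of the abundant genes Idh1, Taldo1 and Pgls were -0.32, 0.24 and -0.15.

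Of 21 regulators of SREBP-1c and ChREBP, 19 had a mean of at least 50, of which 2 were higher and 2 were lower in pKO mice at an unadjusted p of at most 0.05, against 10.6% of all genes in either direction. Cebpa, a transcription factor of adipocyte differentiation, was at 23100 ± 2256 (SD, n = 6) for WT against 29530 ± 3638 (SD, n = 5) for pKO mice (difference 0.35, adjusted p = 0.431, limma). Trib1, which encodes a pseudokinase that directs C/EBP alpha to degradation, was at 303 ± 29.6 (SD, n = 6) and 387 ± 67.3 (SD, n = 5), a difference of 0.34. Mbtps2, the site-2 protease that releases SREBP from the membrane, was lower, at 64.4 ± 8.74 (SD, n = 6) and 41.3 ± 11.9 (SD, n = 5), a difference of -0.66 (adjusted p = 0.370, limma). Mtor, the kinase through which insulin acts on SREBP-1c, had a difference of -0.41. Insig1, which retains SREBP in the endoplasmic reticulum and is itself a target of it, was the most abundant regulator besides Cebpa, at 28454 ± 8147 (SD, n = 6) for WT against 22362 ± 8665 (SD, n = 5) for pKO mice (adjusted p = 0.690, limma), and Pparg, the master regulator of adipocytes, had a difference of 0.13.

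Of 12 other targets of SREBP-1c or ChREBP, 11 had a mean of at least 50, of which 1 was higher, against 4.85% of all genes, and 0 were lower. Slc2a4, which encodes the insulin-responsive glucose transporter GLUT4, ran from 519 to 714 in WT mice and was at 1225, 870, 809, 748 and 717 in pKO replicates 1 to 5. Its ranges were apart, as in 0.717% of all genes with pKO above WT, though pKO replicate 5 was barely above WT replicate 5. The means were 613 ± 66.6 (SD, n = 6) and 874 ± 205 (SD, n = 5), a difference of 0.49 (SE 0.15, adjusted p = 0.370, limma). The differences of the abundant targets Acss2, Gpd1 and Pgd were 0.08, -0.38 and -0.06. This list shares Acacb, Acss2, Slc25a1, G6pdx and Pgd with the lists above, and Slc2a4 is also among the adipocyte markers.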

How the data were processed

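RNA of ground eWAT was copied from the poly(A) tail, cut with NlaIII, trimmed to short tags and sequenced on a SOLiD system. A modified SOLiD SAGE program served the authors for mapping, and they deposited a single table of 15453 genes per mouse. The submitters' processing notes name mm10 and edgeR 3.2.3. The deposited values are a signal, with each library's tag counts scaled by the authors through a size factor. Every value was a whole multiple of the value of 1 tag (0.836 to 1.19) within a tolerance of 0.01, so 100% of the counts could be recovered, and the median-of-ratios factors computed again from them were the same as the authors' scaling. All pairs of libraries differed by more than sampling noise (lowest chi-square per degree of freedom 17.7).

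Here log2(value + 1) was fitted with limma 3.58.1 (trended variance) over all 15453 genes of 6 WT and 5 pKO mice with genotype as the only term, and p-values were adjusted by Benjamini-Hochberg. A call needed a mean of at least 50 in 1 genotype and either of the study's thresholds, 0.1 for the adjusted or 0.05 for the unadjusted p. Differences on this scale understate the change of genes with few tags. Single genes and the Scd1 to Scd2 ratio were also tested by exact permutation over the 462 splits of the mice (smallest p 0.0022). Correlations used 86400 pairings within genotype, or 720 for WT mice alone. Alternatives were edgeR 4.0.16 and DESeq2 1.42.0 on the recovered counts (edgeR called 5 genes), limma-voom, other scalings, filters and pseudocounts, a replicate block and leaving out each mouse. The test scripts were tested on simulated data. Mice with the same replicate number did not deviate together, and no batch is given in the labels. Genes named from the lists are those past the unadjusted threshold and the 3 most abundant of each list, others being paralogs, partners or genes near the threshold chosen after their values were seen. The 10 genes and the lists were chosen with earlier results of these data known. Markers were matched by current or older symbols.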

Additional observations from a re-analysis of the deposited data

Results flagged for a closer look

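In 26 groups of values (the 10 lipogenic genes, Mest, the Scd1 to Scd2 ratio and the total tags, each within a genotype), 1 held a mouse set apart by Dixon's test at the 95% level, where chance gives 1.3. This was Acaca in pKO replicate 1, at 4131 normalized tags against 2093 to 2539 in the other 4 pKO mice. The same mouse had the highest Srebf1, Mlxipl and Me1 of the 11 mice, at 11865, 1073 and 55179, while its Fasn and Scd1, at 14002 and 770322, were within the WT range.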

How the results depend on the processing

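The settings were compared for the 10 differences, the counts of calls and the Scd1 to Scd2 ratio, which kept its direction and its side of the threshold in all its settings. At an adjusted p of at most 0.1, 5 genes were called with all mice. The count was 11 with at least 10 tags required in every library, 121 with DESeq2 (58 higher and 63 lower in pKO mice), 3 relative to adipocyte markers and 1 with the replicate block, and it ran from 3 to 91 with a mouse left out, with 91 without pKO replicate 2 and 12 without WT replicate 5. The lowest adjusted p of the 10 lipogenic genes over 24 settings was 0.12, for Elovl6 without pKO replicate 2.

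At an unadjusted p of at most 0.05, 1 of the 10 genes was higher in pKO mice. There were 2 with a pseudocount of 10, edgeR, DESeq2, limma-voom or robust estimation, where Acaca was added, and 0 with the replicate block or relative to adipocyte markers, and 1 to 2 with a mouse left out, again 2 through Acaca without WT replicate 5, pKO replicate 4 or pKO replicate 5. The 1 lower gene, Elovl6, was not called without WT replicate 2 or without pKO replicate 3, 4 or 5, so this count ran from 0 to 1. Thrsp had a difference of 0.60, with an unadjusted limma p of 0.0648, under the replicate block and of 0.49, with one of 0.0556, relative to adipocyte markers.

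Small differences changed sign. Total-count scaling gave -0.0054 for Acly and -0.0066 for Scd2. The replicate block gave -0.096 for Acly, -0.031 for Scd2 and -0.0053 for Srebf1. No pKO mouse has the number of WT replicate 6, so the block takes nothing from that mouse. The block differences were therefore those of the fit without WT replicate 6. Relative to adipocyte markers, Acly was at -0.13, Scd2 at -0.13, Srebf1 at -0.12, Fasn at -0.068 and Me1 at -0.023. Mlxipl was at 0.0048 with edgeR and 0.011 with DESeq2. With a mouse left out, Acly ran from -0.13 to 0.23, Scd2 from -0.036 to 0.10, Srebf1 from -0.067 to 0.13 and Mlxipl from -0.20 to 0.12. Dividing the libraries by other factors moves the differences of all genes together. The median difference of all genes was -0.027 with total-count scaling and -0.15 relative to adipocyte markers. Why the other signs changed was not tested.

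Deviations of mice with the same replicate number had a mean correlation of -0.024, against 0.0046 for different numbers. Of 5 pKO mice, 0 correlated best with the WT mouse of their number. The values thus show no sign that the numbers pair the mice, but so few pairs cannot exclude it. Of genes past the unadjusted threshold 45.6% were higher in pKO mice, but 31.3% with total-count scaling, 6.55% relative to adipocyte markers, 51.8% with edgeR and 53.8% with DESeq2. Total-count scaling and the scaling to adipocyte markers lower the differences of all genes together, as given above. Nothing in the labels says whether mice shared a litter, cage or library batch, and depth limits only genes with few tags, of which none of the 10 is.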
